A study of Mus musculus with 12 samples.

Results

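The 10 genes described here belong to the circadian clock: Arntl, Clock, Npas2, Cry1, Per1, Per2, Per3, Dbp, Tef and Ciart. They were picked by name from the 41325 genes listed for each library, and all 10 passed the filter on low counts, as 16456 genes did. Liver RNA came from C57BL/6J mice of WT genotype. The CDDO-Me group (n = 4) had nonalcoholic steatohepatitis (NASH), a fatty, inflamed and fibrotic liver, brought on by CDAHFD, a choline-deficient high-fat diet. These mice were dosed orally with CDDO-Me, the NRF2 activator bardoxolone methyl, for 8 weeks (10 mg/kg). The NASH vehicle group (n = 4) had the same diet-induced disease and received vehicle, and the control group (n = 4) had no NASH and received vehicle. No source used here gives the age or sex of the mice, the diet of the control mice, the light schedule, the feeding state or the hour at which each liver was taken. Collection time and group therefore cannot be told apart.

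The circadian clock is a feedback loop of transcription that runs with a period of about a day in nearly every cell. The activator ARNTL (also called BMAL1) pairs with CLOCK or with its relative NPAS2. The pair binds E-boxes, short DNA motifs in or near the Per, Cry, Dbp, Tef and Ciart genes. PER and CRY proteins accumulate and block the activator, while REV-ERB and ROR nuclear receptors repress and activate Arntl through a further loop. In mouse liver, Arntl, Clock and Npas2 RNA peaks around the change from dark to light and Cry1 RNA late in the dark phase, whereas Dbp, Ciart, Tef, Per1, Per2 and Per3 RNA peaks between the middle of the light phase and the early dark phase. Feeding times reset the liver clock strongly.

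RefSeq promoter sequences (build GRCm38.p6, 250 bases before to 50 bases after the start site) were held for 9 of the 10 genes, all but Per2. Both strands were searched for the E-box CACGTG, for the E-box-like CACGTT, for the D-box TTATGTAA or TTACGTAA, to which DBP, TEF and HLF bind, and for the core of the ROR element, TAGGTCA or TGGGTCA. The E-box was found for 4 of the 9 genes, namely Ciart, Cry1, Per1 and Tef, and for 8.09% of all 27025 genes with a promoter in the table, where a gene with several windows counts if any of them holds the motif. The D-box was found only in the promoter of Per3 among the 9 genes, in 2 copies, and for 1.23% of all these genes. Cry1 also held the E-box-like motif, found for 5.44% of all genes, and 1 of the 2 windows of Arntl held the ROR core, found for 7.35% of all genes. The windows of Clock, Npas2 and Dbp held none of these letters, and sequence outside the windows was not searched. No match overlapped another. The 4 promoters below are shown as examples that hold an E-box or a D-box, and capitals mark the matches. Both windows of Tef also hold an E-box and are not shown.
Ciart, chr3:95882179-95882478, minus strand: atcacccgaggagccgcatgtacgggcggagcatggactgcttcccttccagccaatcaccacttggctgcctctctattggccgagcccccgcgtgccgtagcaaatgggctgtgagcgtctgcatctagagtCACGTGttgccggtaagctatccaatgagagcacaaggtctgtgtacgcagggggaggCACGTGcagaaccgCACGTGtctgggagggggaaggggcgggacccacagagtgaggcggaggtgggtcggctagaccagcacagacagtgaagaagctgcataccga
Cry1, chr10:85185005-85185304, minus strand: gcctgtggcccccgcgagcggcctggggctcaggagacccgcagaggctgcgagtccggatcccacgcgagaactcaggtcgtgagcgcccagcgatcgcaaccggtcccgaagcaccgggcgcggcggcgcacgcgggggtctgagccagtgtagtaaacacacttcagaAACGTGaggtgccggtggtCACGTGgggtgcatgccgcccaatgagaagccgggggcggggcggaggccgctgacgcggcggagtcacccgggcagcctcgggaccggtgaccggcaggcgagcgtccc
Per1, chr11:69098699-69098998, plus strand: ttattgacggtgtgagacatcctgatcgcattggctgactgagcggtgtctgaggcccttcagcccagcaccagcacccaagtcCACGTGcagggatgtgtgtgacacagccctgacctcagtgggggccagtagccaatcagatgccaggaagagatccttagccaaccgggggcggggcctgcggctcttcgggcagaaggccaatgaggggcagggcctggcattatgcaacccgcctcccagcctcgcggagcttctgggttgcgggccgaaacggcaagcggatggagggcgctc
Per3, chr4:151044616-151044915, minus strand: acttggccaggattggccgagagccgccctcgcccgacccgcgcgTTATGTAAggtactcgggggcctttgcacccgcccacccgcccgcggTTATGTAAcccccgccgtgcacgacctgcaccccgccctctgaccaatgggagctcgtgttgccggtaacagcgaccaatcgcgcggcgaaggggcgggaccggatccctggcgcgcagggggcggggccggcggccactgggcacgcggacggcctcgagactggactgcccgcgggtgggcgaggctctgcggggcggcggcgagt
The 3 E-boxes of Ciart, more than in any of the other 8 genes, lie before the start site, as do both D-boxes of Per3. Per1 has 2 windows, and the one shown holds its E-box. A match is a string of letters and no measure of binding.

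Each library held 28161057 to 33852338 reads on genes, and 86.1% to 89.8% of them were unique. Values are given as CPM, the reads on a gene per 1000000 reads of its library after TMM scaling, or as TPM, the authors' unit that also corrects for length and sums to 1000000 per library. RNA makeup differed between groups: summed over 6 marker genes, hepatocyte RNA stood at 32397 to 49402 CPM in CDDO-Me, 31110 to 51795 CPM in NASH vehicle and 80850 to 98412 CPM in control livers, and macrophage RNA at 658 to 1324, 1239 to 2414 and 90.5 to 149.9 CPM in the same groups. Summed stellate cell and fibroblast markers stood at 574 to 1050.1 CPM in CDDO-Me, 1187 to 1774 CPM in NASH vehicle and 176 to 282 CPM in control livers, and endothelial markers at 105 to 150.2, 60.2 to 112 and 120 to 131 CPM in the same groups. All 6 hepatocyte markers were lower and all 6 macrophage and all 5 stellate cell and fibroblast markers higher in both NASH groups than in control livers. Few reads were unique for the stellate cell marker Lrat (2.35%) and for the hepatocyte marker Serpina1c (39.8%). Of 4 endothelial markers, 3 were lower in NASH vehicle than in control livers and 2 higher in CDDO-Me than in NASH vehicle livers. All 10 clock genes are used by many cell types, so fewer cells of a type and less RNA per cell cannot be told apart, and the part of cell makeup in the results below was not tested. TMM sets the typical gene to no change. Scaling by library totals alone put the median of all genes at 0.62 (log2) for NASH vehicle against control. That median was -0.16 for CDDO-Me against NASH vehicle and 0.51 for CDDO-Me against control. On the log2(TPM + 1) scale the 3 medians were 0.58, -0.19 and 0.43. Control 3 and CDDO-Me 4 stood apart by smooth muscle RNA, with 326.6 and 109.5 CPM over 4 markers, against 8.95 to 29.3 CPM in the other 10 libraries. Control 3, which has the highest Dbp of the controls, also held 200.001 CPM over 4 cholangiocyte markers, against 17.9 to 29.3 CPM in the other controls. Leaving out both libraries gave 7, 2 and 9 clock genes called in the comparisons of NASH vehicle with control, CDDO-Me with NASH vehicle and CDDO-Me with control, against 7, 3 and 9 with all 12. The call lost was Arntl in CDDO-Me against NASH vehicle (-0.36, adjusted p = 0.058). Of 16591 genes tested without both libraries, 5255 were called higher and 5087 lower in the first comparison. The second had 2211 higher and 2004 lower, and the third 4230 and 3411. With all 12 libraries and 16456 genes tested, these counts were 4874 and 4945, 1545 and 1191, and 4317 and 3881.

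In NASH vehicle against control livers, Cry1 and the activators Arntl, Clock and Npas2 were lower, and Per1, Per3 and Dbp were higher. These 7 of 10 genes passed the test (edgeR quasi-likelihood test, Benjamini-Hochberg adjusted p under 0.05), 3 higher and 4 lower, where 59.7% of all tested genes passed, 29.6% higher and 30.0% lower. The groups did not overlap in CPM for 5 of the 10 genes, against 54.4% of all tested genes. The shares of clock genes called and without overlap were thus near those of all genes. The median change of the 10 was -0.20 (log2), against -0.01 over all tested genes.

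Against NASH vehicle livers, CDDO-Me livers showed fewer changes: Ciart and Clock were higher and Arntl was lower, and the other 7 did not pass. That is 3 of 10, 2 higher and 1 lower, where 16.6% of all tested genes passed, 9.39% higher and 7.24% lower. The groups did not overlap in CPM for 1 gene, Ciart, against 21.6% of all tested genes. The median of the 10 was 0.30, against -0.01 over all tested genes.

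In CDDO-Me against control livers, 9 of 10 genes passed, 4 higher (Per1, Per3, Dbp and Ciart) and 5 lower (Arntl, Clock, Npas2, Per2 and Cry1), where 49.8% of all tested genes passed, 26.2% higher and 23.6% lower. The groups did not overlap in CPM for 9 of the 10, all but Per3, against 43.7% of all tested genes. The comparisons share libraries: NASH vehicle livers enter 2 of them, and the control livers serve for both NASH groups.

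**Figure D1:**
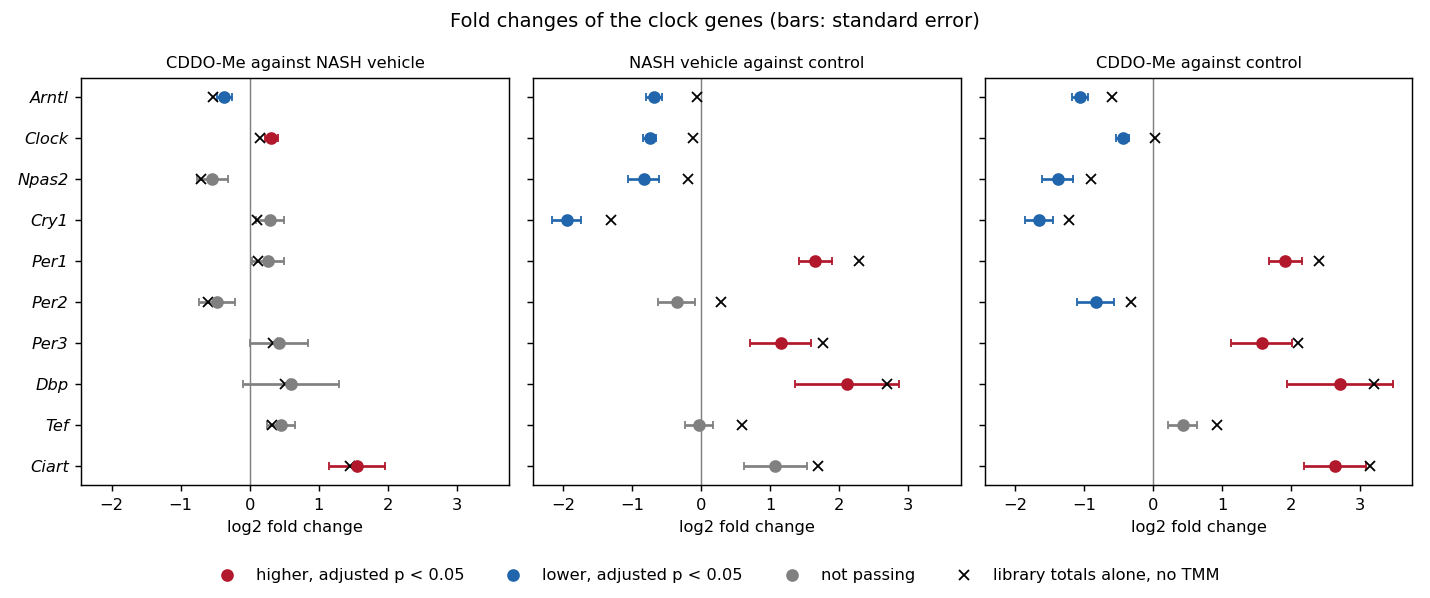
Log2 fold change (horizontal axis) of each clock gene (rows) in the 3 comparisons, with points at the edgeR estimate, bars of 1 standard error, colour for genes passing at adjusted p under 0.05, and crosses for scaling by library totals alone. Cry1 stays below 0 and Per1, Per3 and Dbp stay above 0 under both scalings in both comparisons with control livers, whereas Clock moves to 0.03 in CDDO-Me against control and Per2 and Tef move to 0.28 and 0.59 in NASH vehicle against control when only library totals are used.

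Arntl (chr7:113207465-113314126, plus strand, GRCm38 as for all genes here) encodes the activator without which the clock stops in mice. It stood at 14.7, 19.7, 21.01 and 17.9 CPM in CDDO-Me livers, at 24.2, 20.2, 25.8 and 24.2 CPM in NASH vehicle livers, and at 37.8, 35.2, 37.2 and 42.0 CPM in control livers. All 8 NASH livers lay below all 4 control livers, and CDDO-Me 3 lay above NASH vehicle 2. The log2 fold change was -0.69 ± 0.11 (SE) for NASH vehicle against control (edgeR adjusted p = 0.000157), -0.37 ± 0.11 for CDDO-Me against NASH vehicle (adjusted p = 0.0418) and -1.05 ± 0.11 for CDDO-Me against control (adjusted p = 7.44e-06). The change in NASH vehicle livers rested on the scaling: it was -0.06 (adjusted p = 0.69) with library totals alone and 0.01 (adjusted p = 0.97) on log2(TPM + 1), where it turned sign, with adjusted p of 3.07e-06 to 0.966 over all alternatives. CDDO-Me against control stayed called, at -0.59 and -0.52. As TPM, Arntl averaged 4.98 ± 0.62 in CDDO-Me, 7.66 ± 1.26 in NASH vehicle and 7.60 ± 1.00 in control livers (SD, n = 4 each). The edgeR call of CDDO-Me against NASH vehicle ended without NASH vehicle 1, 3 or 4 or CDDO-Me 1, 2 or 4, with adjusted p of 0.0107 to 0.295 over all alternatives.

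Clock (chr5:76209868-76304792, minus strand) encodes the usual partner of ARNTL. Its RNA stood at 52.6, 53.2, 56.8 and 46.1 CPM in CDDO-Me livers, at 47.3, 40.7, 41.9 and 38.2 CPM in NASH vehicle livers, and at 69.2, 74.9, 61.2 and 77.7 CPM in control livers. Every NASH liver lay below every control liver, and the NASH groups overlapped only through NASH vehicle 1 and CDDO-Me 4. On the log2 scale the change was -0.75 ± 0.10 for NASH vehicle against control (edgeR adjusted p = 2.14e-05), 0.31 ± 0.10 for CDDO-Me against NASH vehicle (adjusted p = 0.0421) and -0.44 ± 0.10 for CDDO-Me against control (adjusted p = 0.00207). Scaling by library totals gave -0.12, 0.15 and 0.03, and log2(TPM + 1) gave 0.04, 0.09 and 0.13, none of them called, so that the direction against control turned with the scaling. The call of CDDO-Me against NASH vehicle also ended without NASH vehicle 2, 3 or 4 or CDDO-Me 1, 2 or 3, with adjusted p of 0.00933 to 0.889 over all alternatives.

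Npas2 (chr1:39193731-39363236, plus strand) encodes a relative of CLOCK that can take its place beside ARNTL. It stood at 5.64, 4.95, 6.90 and 6.62 CPM in CDDO-Me livers, at 5.69, 6.90, 8.79 and 13.7 CPM in NASH vehicle livers, and at 17.4, 15.3, 15.1 and 14.9 CPM in control livers. Levels were close together in CDDO-Me and control livers and spread over a 2.41-fold range in NASH vehicle livers, with NASH vehicle 4 just below the controls. Its change (log2) was -0.84 ± 0.22 for NASH vehicle against control (edgeR adjusted p = 0.00491), -0.54 ± 0.22 for CDDO-Me against NASH vehicle (adjusted p = 0.114) and -1.38 ± 0.22 for CDDO-Me against control (adjusted p = 0.000212). With library totals alone the first of these was -0.19 and no longer called, and the last was -0.90 and still called. Without NASH vehicle 1, CDDO-Me against NASH vehicle passed at -0.70 (adjusted p = 0.030, with 0.0295 to 0.413 over all alternatives).

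**Figure D2:**
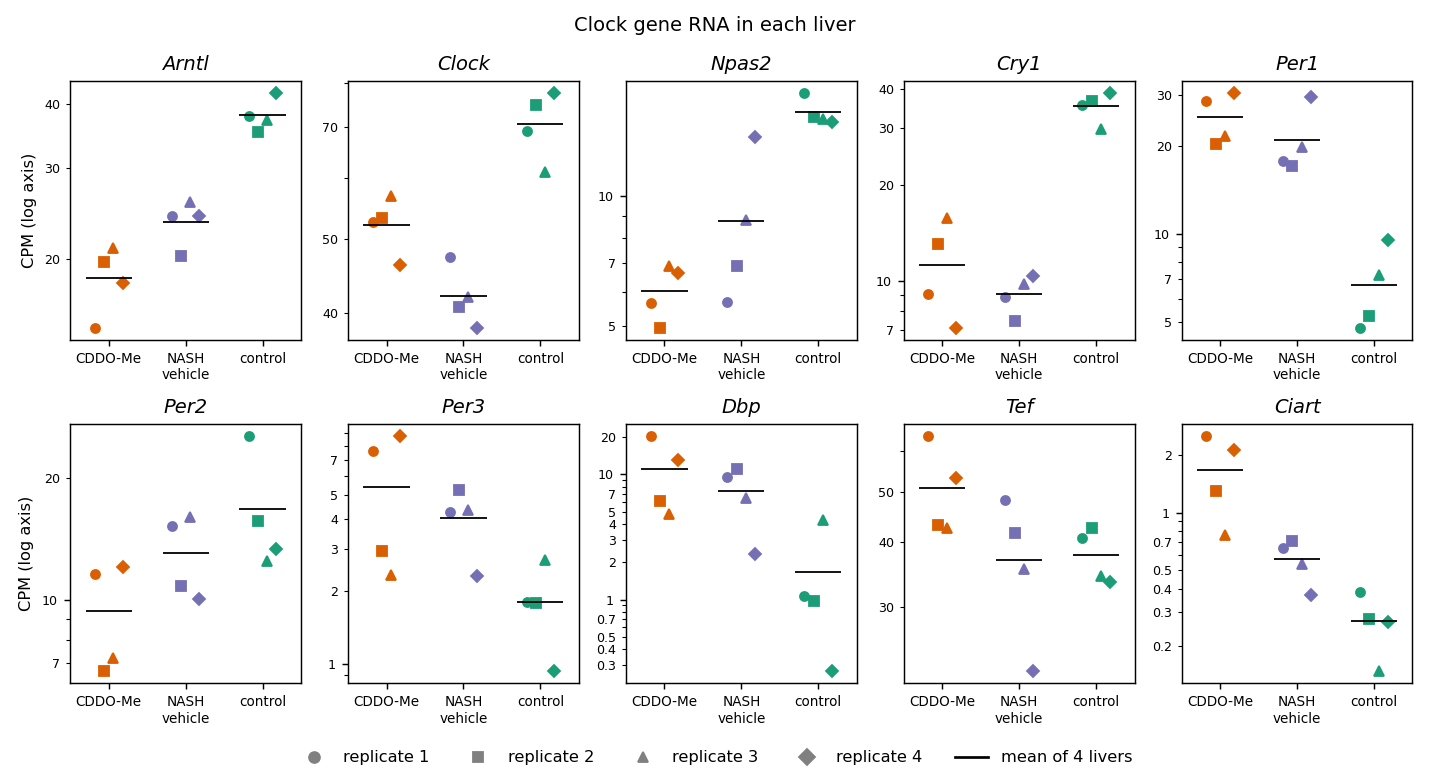
CPM (vertical log axes, 1 panel per gene) of the 10 clock genes in the 4 livers of the CDDO-Me, NASH vehicle and control groups, with symbols for replicate numbers, which link no animals between groups, and a line at each mean. Cry1 and Arntl are highest in all 4 control livers and Per1 is lowest there, while Dbp spans 0.268 to 4.33 CPM among the control livers alone.

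Cry1 (chr10:85131700-85185064, minus strand) encodes a cryptochrome, a strong repressor of the activator pair. Its fall was the largest among the 10 genes in both comparisons with control livers. Cry1 stood at 9.04, 12.99, 15.7 and 7.11 CPM in CDDO-Me livers, at 8.88, 7.45, 9.77 and 10.3 CPM in NASH vehicle livers, and at 35.6, 36.7, 29.8 and 38.8 CPM in control livers. No NASH liver reached the lowest control. The change in log2 was -1.95 ± 0.21 for NASH vehicle against control (edgeR adjusted p = 5.10e-06), a 3.86-fold difference, and -1.65 ± 0.21 for CDDO-Me against control (adjusted p = 2.87e-05). CDDO-Me differed from NASH vehicle by 0.30 ± 0.21 (adjusted p = 0.363). The fall against control held under library totals, at -1.31 and -1.21, and on log2(TPM + 1), at -1.04 and -1.03. It also held in reads on introns, which come largely from unspliced RNA, at -1.84 (adjusted p = 0.0022) and -1.61 (adjusted p = 0.0084). Those reads were few, in all 63 in CDDO-Me, 59 in NASH vehicle and 106 in control livers before scaling.

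The Period genes encode the partners of the cryptochromes, and against control livers Per1 and Per3 were higher in both NASH groups while Per2 was lower in CDDO-Me livers. Per1 (chr11:69095217-69109960, plus strand) stood at 28.5, 20.3, 21.6 and 30.5 CPM in CDDO-Me livers, at 17.7, 17.1, 19.9 and 29.4 CPM in NASH vehicle livers, and at 4.76, 5.21, 7.25 and 9.52 CPM in control livers. All 8 NASH livers lay above all control livers, and the NASH groups overlapped. Its log2 fold change was 1.65 ± 0.24 for NASH vehicle against control (edgeR adjusted p = 7.54e-05), 0.26 ± 0.23 for CDDO-Me against NASH vehicle (adjusted p = 0.476) and 1.92 ± 0.24 for CDDO-Me against control (adjusted p = 3.71e-05). Both calls against control held under every alternative run, with log2 fold changes on introns of 1.32 and 2.19. Per1 is also induced directly by glucocorticoids and by cAMP signals.

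Per2 (chr1:91415982-91459324, minus strand) stood at 11.6, 6.70, 7.22 and 12.1 CPM in CDDO-Me livers, at 15.3, 10.9, 16.1 and 10.1 CPM in NASH vehicle livers, and at 25.4, 15.7, 12.5 and 13.4 CPM in control livers. Control 1 stood above the other livers, and all 4 CDDO-Me livers lay below the lowest control, CDDO-Me 1 and 4 narrowly and CDDO-Me 2 and 3 by more. Changes on the log2 scale were -0.36 ± 0.26 for NASH vehicle against control (edgeR adjusted p = 0.255), -0.47 ± 0.26 for CDDO-Me against NASH vehicle (adjusted p = 0.253) and -0.83 ± 0.27 for CDDO-Me against control (adjusted p = 0.0197). The last call ended without control 1 (-0.56, adjusted p = 0.066), without CDDO-Me 3 (adjusted p = 0.055) and with library totals (-0.32, adjusted p = 0.36), and the direction for NASH vehicle against control turned to 0.28 with library totals. Over all alternatives the adjusted p for CDDO-Me against control was 0.000354 to 0.399, the lowest from reads on introns (-1.11).

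Per3 (chr4:151003652-151044665, minus strand), the least needed of the 3 for the rhythm itself in mice, stood at 7.58, 2.95, 2.33 and 8.77 CPM in CDDO-Me livers, at 4.26, 5.25, 4.34 and 2.31 CPM in NASH vehicle livers, and at 1.81, 1.80, 2.70 and 0.939 CPM in control livers. Within the CDDO-Me group livers 1 and 4 were high and livers 2 and 3 low. CDDO-Me 3 and NASH vehicle 4 lay below control 3. The log2 fold change was 1.15 ± 0.44 for NASH vehicle against control (edgeR adjusted p = 0.0390), 0.43 ± 0.42 for CDDO-Me against NASH vehicle (adjusted p = 0.541) and 1.58 ± 0.45 for CDDO-Me against control (adjusted p = 0.0103). The call of NASH vehicle against control ended without control 1, 2 or 4 or NASH vehicle 1, 2 or 3, with adjusted p of 0.068 to 0.10 and a range of 0.00692 to 0.103 over all alternatives. Only 22.8% of Per3 reads were unique and Camta1 overlaps it on the same strand. Unique reads alone gave 1.52 and 1.43 against control, both called, and turned CDDO-Me against NASH vehicle to -0.09.

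Dbp and Tef encode transcription factors that carry the rhythm from the core clock to output genes through D-boxes, and Dbp is among the genes of mouse liver with the widest daily swing. Dbp (chr7:45705088-45710203, plus strand) stood at 20.3, 6.18, 4.82 and 12.99 CPM in CDDO-Me livers, at 9.51, 11.1, 6.43 and 2.31 CPM in NASH vehicle livers, and at 1.08, 0.969, 4.33 and 0.268 CPM in control livers, the last being 6 reads in control 4. NASH vehicle 4 lay below control 3, and no CDDO-Me liver reached down to the controls. The log2 fold change was 2.11 ± 0.76 for NASH vehicle against control (edgeR adjusted p = 0.0309), 0.60 ± 0.69 for CDDO-Me against NASH vehicle (adjusted p = 0.608) and 2.71 ± 0.77 for CDDO-Me against control (adjusted p = 0.0122). The first call ended without control 1, 2 or 4 or NASH vehicle 1 or 2 (adjusted p of 0.062 to 0.076) and with no filter on low counts (adjusted p = 0.078), and adjusted p ran from 0.00241 to 0.0783 over all alternatives. Without control 3 and CDDO-Me 4, the libraries with smooth muscle RNA, the changes against control were larger, 3.23 (adjusted p = 0.0055) and 3.75 (adjusted p = 0.0044).

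Dbp overlaps Sphk2, which lies on the opposite strand and had 1282 to 2475 reads per library, and no source used here states the strand of the libraries. Reads of the pair can therefore be mixed. Reads across splice junctions of Dbp numbered 131, 27, 28 and 88 in CDDO-Me livers, 64, 68, 56 and 20 in NASH vehicle livers and 8, 6, 24 and 2 in control livers. They ranked the livers within each group as the total reads did, except for CDDO-Me 2 and 3, at 27 and 28. Sphk2 itself had 33.7 to 44.0 TPM in CDDO-Me, 33.1 to 43.4 TPM in NASH vehicle and 21.5 to 36.6 TPM in control livers.

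Tef (chr15:81802421-81826863, plus strand) stood at 64.1, 43.2, 42.6 and 53.2 CPM in CDDO-Me livers, at 48.2, 41.6, 35.5 and 22.6 CPM in NASH vehicle livers, and at 40.8, 42.5, 34.4 and 33.4 CPM in control livers. The lowest CDDO-Me liver was only just above the highest control. No comparison passed: the log2 fold change was -0.03 ± 0.20 for NASH vehicle against control (edgeR adjusted p = 0.901), 0.46 ± 0.20 for CDDO-Me against NASH vehicle (adjusted p = 0.144) and 0.43 ± 0.20 for CDDO-Me against control (adjusted p = 0.0993). With library totals Tef was called higher in NASH vehicle (0.59, adjusted p = 0.027) and in CDDO-Me (0.92, adjusted p = 0.0030) than in control livers, and for NASH vehicle the direction turned with the scaling. CDDO-Me against control was also called higher with the 8 libraries of these groups alone (0.43, adjusted p = 0.027) and on reads on introns (1.19, adjusted p = 0.0075). Over all alternatives the adjusted p was 0.0156 to 1 for NASH vehicle and 0.00266 to 0.272 for CDDO-Me against control.

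Ciart (chr3:95878503-95882251, minus strand) encodes CHRONO, a repressor that binds ARNTL, and its promoter holds the 3 E-boxes shown above. It was the scarcest of the 10 genes by CPM, at 2.53, 1.299, 0.766 and 2.12 CPM in CDDO-Me livers, 0.656, 0.714, 0.540 and 0.371 CPM in NASH vehicle livers, and 0.384, 0.277, 0.148 and 0.268 CPM in control livers. By CPM the CDDO-Me livers lay above all others, and NASH vehicle 4 overlapped control 1. By TPM the NASH groups overlapped, with CDDO-Me 3 at 0.748 and NASH vehicle 1 and 3 at 0.758 and 0.856. CDDO-Me 3 had 21 reads, against 22, 26, 22 and 14 in the NASH vehicle livers. The log2 fold change was 1.56 ± 0.41 for CDDO-Me against NASH vehicle (edgeR adjusted p = 0.0193), 1.07 ± 0.45 for NASH vehicle against control (adjusted p = 0.0557) and 2.63 ± 0.45 for CDDO-Me against control (adjusted p = 0.000306). The first of these ended without NASH vehicle 3 or 4 or CDDO-Me 1 (adjusted p of 0.058 to 0.069), with 0.00419 to 0.069 over all alternatives. NASH vehicle against control passed without control 1 (1.30, adjusted p = 0.044) and without NASH vehicle 4 (1.23, adjusted p = 0.043), with 0.00696 to 0.15 over all alternatives. Only 30.9% of its 337 reads were unique, and C920021L13Rik overlaps it on the opposite strand. Its junction reads numbered 17, 18, 7 and 21 in CDDO-Me livers, 4, 4, 6 and 4 in NASH vehicle livers, and 4, 5, 0 and 2 in control livers.

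Per unit of length, the order of the 10 genes differed between groups. As mean TPM, CDDO-Me livers had Tef (15.3) first, followed by Per1 (10.8), Clock (9.62), Dbp (9.40), Cry1 (8.37), Arntl (4.98), Npas2 (2.80), Per2 (2.69), Ciart (1.66) and Per3 (1.32). NASH vehicle livers had Tef (12.7), Per1 (10.9), Clock (8.97), Cry1 (8.24), Arntl (7.66), Dbp (6.91), Npas2 (4.69), Per2 (4.14), Per3 (1.15) and Ciart (0.713). Control livers had Cry1 (17.8), Clock (8.69), Tef (7.92), Arntl (7.60), Npas2 (4.62), Per2 (3.30), Per1 (1.96), Dbp (0.976), Per3 (0.320) and Ciart (0.183). Neighbours in these orders overlapped in range except Cry1 and Arntl, and Arntl and Npas2, in CDDO-Me livers, Per2 and Per3 in NASH vehicle livers, and Cry1 and Clock, and Arntl and Npas2, in control livers. Cry1 was thus first by a clear margin in control livers only, at 16.99 to 19.3 TPM.

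The ratio of Dbp to Arntl within a library does not depend on how libraries are scaled, and the peaks of the 2 genes lie far apart in the day. By TPM it was 4.32, 0.889, 0.618 and 2.22 in CDDO-Me livers, 1.18, 1.61, 0.761 and 0.274 in NASH vehicle livers, and 0.0797, 0.0807, 0.299 and 0.0201 in control livers. All CDDO-Me livers lay above all control livers, while NASH vehicle 4 lay just below control 3. As a difference of log2 CPM it averaged -0.94 ± 1.17 in CDDO-Me, -1.89 ± 1.08 in NASH vehicle and -5.05 ± 1.59 in control livers (SD, n = 4 each). These values are a description with no test, and the part of collection hour or feeding in them cannot be told apart from that of the groups.

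**Figure D3:**
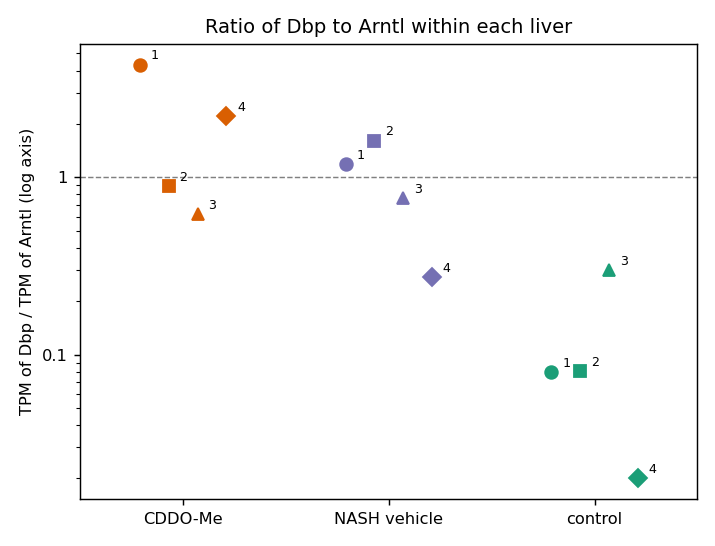
TPM of Dbp divided by TPM of Arntl (vertical log axis) in each CDDO-Me, NASH vehicle and control liver, numbered by replicate, with a dashed line at equal TPM. The 4 control livers lie at 0.0201 to 0.299 and the CDDO-Me livers at 0.618 to 4.32, with NASH vehicle livers from 0.274 to 1.61.

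Livers of the same group differed most in Dbp. The SD of its log2 CPM was 0.95 in CDDO-Me, 1.01 in NASH vehicle and 1.52 in control livers, larger than for 96.4%, 98.4% and 97.3% of all tested genes, whose median SD was 0.23, 0.20 and 0.24. Arntl and Clock were steadier, with SDs of 0.11 to 0.22 and 0.13 to 0.15. Genes with few reads spread more by counting alone, which touches Dbp in control livers.

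The departures of livers from their group means ran together for several genes. In the CDDO-Me group, livers 1 and 4 stood above the group mean for Dbp, Per3, Ciart, Tef, Per2 and Per1 and below it for Cry1, while livers 2 and 3 did the reverse. In the NASH vehicle group, liver 4 was lowest for Dbp, Per3, Ciart and Tef and highest for Npas2 and Per1. Among 45 pairs of clock genes, 3 passed by Pearson r in an exact permutation test within groups (two-sided, n = 12 livers, Benjamini-Hochberg over the 45 pairs). Dbp and Per3 departed together (Pearson r = 0.880, Spearman rho = 0.888, exact permutation p = 0.0011 and 0.0014, adjusted p = 0.049 and 0.027). Per3 and Cry1 departed in opposite directions (r = -0.908, rho = -0.909, exact permutation p = 0.0025 and 0.0015, adjusted p = 0.049 and 0.027). Tef and Ciart departed together (r = 0.737, rho = 0.790, exact permutation p = 0.0033 and 0.0050, adjusted p = 0.049 and 0.056). By Spearman rho the third pair to pass was Cry1 and Dbp, which departed in opposite directions, and Tef and Ciart did not pass. For Cry1 and Dbp r was -0.695 and rho -0.818 (exact permutation test, adjusted p = 0.055 and 0.027).

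Without the 2 livers farthest from the median of Per3, r was 0.841 for Dbp and Per3 and -0.902 for Per3 and Cry1. Without the 2 farthest from the median of Tef, r was 0.822 for Tef and Ciart. The Pearson calls sat at the edge of the threshold: 0 pairs passed with library totals alone or on log2(TPM + 1), and 1 with unique reads. No pair passed without control 1 or 4, NASH vehicle 1, 2 or 4, or CDDO-Me 3, 1 passed without CDDO-Me 2, and 6 passed without control 3. Other measures also separated CDDO-Me livers 1 and 4 from 2 and 3. Reads on introns made up 5.86% and 6.31% of livers 1 and 4, against 4.50% and 4.91% of livers 2 and 3, macrophage markers summed to 969 and 1324, against 658 and 790 CPM, and hepatocyte markers to 35785 and 32397, against 49402 and 42005 CPM. Their part in the shared departures was not tested.

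**Figure D4:**
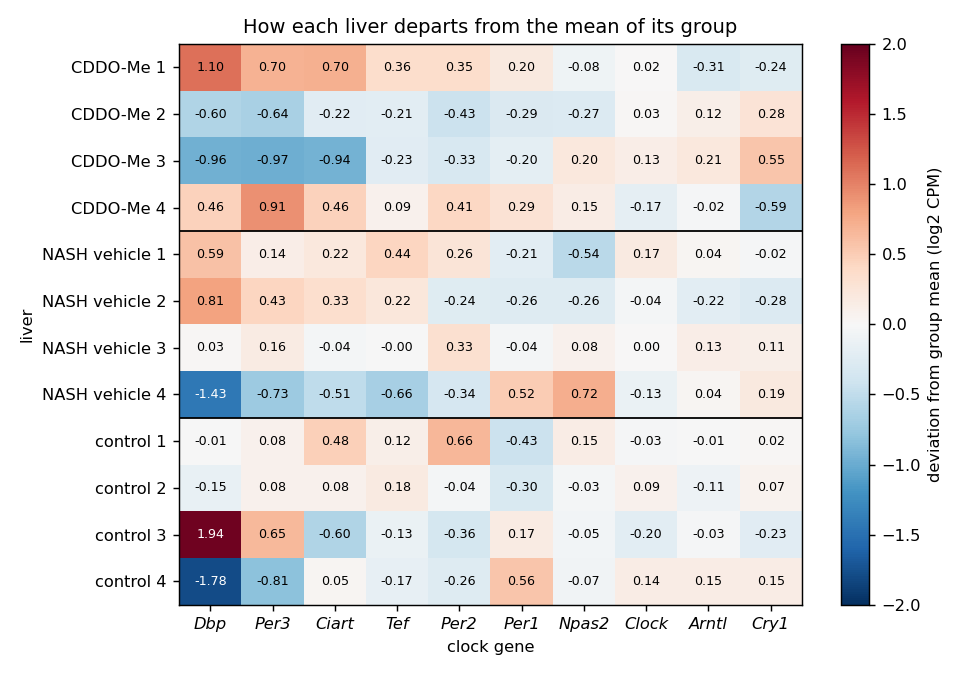
Deviation of each liver (rows) from the mean of its group, in log2 CPM, for each clock gene (columns), with red above and blue below the group mean. CDDO-Me livers 1 and 4 are red for Dbp (1.10 and 0.46) and blue for Cry1 (-0.24 and -0.59), livers 2 and 3 are the reverse, and control livers 3 and 4 differ most in Dbp (1.94 and -1.78).

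**Figure D5:**
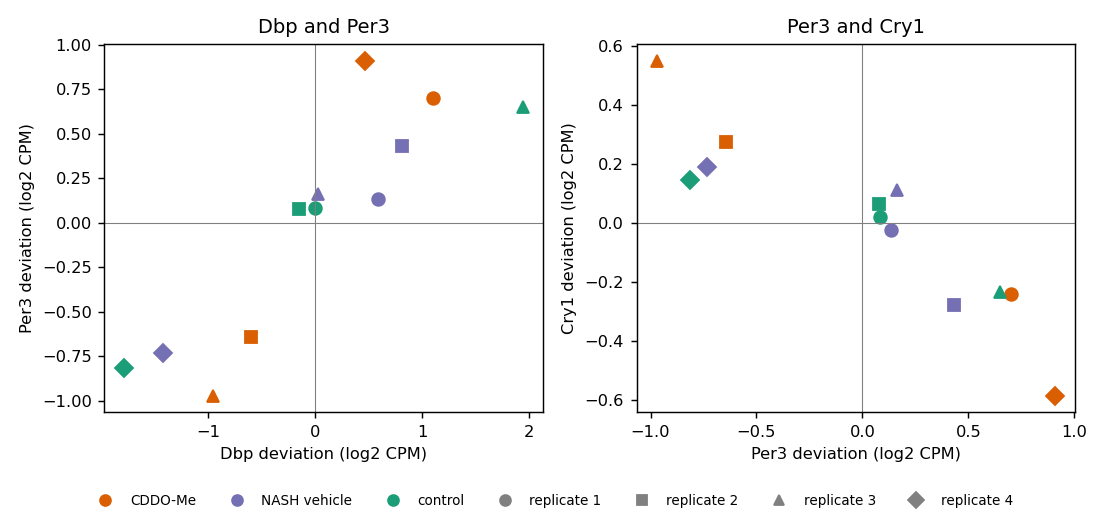
Deviation from the group mean in log2 CPM for Dbp (horizontal) against Per3 (vertical), left, and for Per3 (horizontal) against Cry1 (vertical), right, 1 point per liver, coloured by group and shaped by replicate number. The 12 livers rise together for Dbp and Per3 (r = 0.880) and run opposite for Per3 and Cry1 (r = -0.908).

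Genes departing most like Arntl among 10342 well expressed genes were Polr1e (r = 0.89), Ift52 (0.87), Gclc (0.82), P2rx4 (0.80) and Pi4ka (0.77), and most opposite were Rpp30 (-0.91), Mcm4 (-0.91), Slfn5 (-0.87), Sap30bp (-0.85) and Kdelc2 (-0.82). For Dbp the closest were Snupn (0.92), Ddo (0.89), Rbbp9 (0.88), Utp15 (0.87) and Dclk3 (0.84), and the most opposite Hectd2 (-0.90), Rpp14 (-0.88), Zfp771 (-0.86), Tpgs2 (-0.85) and Tbc1d9b (-0.85). These are Pearson r of deviations over 12 libraries that share depth and scaling, and they stand as a description.

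Other components of the loop also changed, and for these and the genes after them changes are log2 fold changes ± SE. Of 9 such genes, 4 were higher, 4 lower and 1 not called in NASH vehicle against control livers, with a median log2 change of 0.53, where 59.7% of all tested genes were called, 29.6% higher and 30.0% lower, with a median of -0.01. The counts were also 4, 4 and 1 in CDDO-Me against control livers (49.8% of all tested genes called). In CDDO-Me against NASH vehicle livers 1 was higher and 8 were not called (16.6% of all tested genes called). The REV-ERB genes Nr1d1 and Nr1d2, whose proteins repress Arntl, were both higher in NASH vehicle than in control livers, by 1.04 ± 0.32 (edgeR adjusted p = 0.0143) and 1.04 ± 0.20 (adjusted p = 0.00062). Nr1d1 stood at 49.3 to 70.9 CPM in CDDO-Me, 20.4 to 74.6 CPM in NASH vehicle and 18.4 to 28.05 CPM in control livers, and Nr1d2 at 54.8 to 65.6, 32.5 to 60.6 and 17.5 to 31.4 CPM. Of the Nr1d1 reads 78.4% were unique, and Thra overlaps it on the opposite strand. In NASH vehicle against control livers, neither gene was called on reads on introns.

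Hlf, the third D-box factor, fell by 1.69 ± 0.15 in NASH vehicle against control livers (edgeR adjusted p = 6.82e-07). It was higher in CDDO-Me than in NASH vehicle livers, by 0.75 ± 0.14 (adjusted p = 0.00356), and was the 1 of 9 called in that comparison, still below control. Neither call held on reads on introns. Hlf went the other way from its relative Dbp against control, at 18.7 to 24.5 CPM in CDDO-Me, 10.2 to 17.9 CPM in NASH vehicle and 40.1 to 46.6 CPM in control livers. Nfil3, a repressor that competes at D-boxes, fell by 1.67 ± 0.24 in NASH vehicle (adjusted p = 7.01e-05) and by 1.77 ± 0.24 in CDDO-Me livers (adjusted p = 6.96e-05) against control.

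Bhlhe41 and Bhlhe40, which encode the E-box repressors DEC2 and DEC1, were higher in NASH vehicle than in control livers, by 3.80 ± 0.44 (edgeR adjusted p = 1.31e-05) and 0.53 ± 0.13 (adjusted p = 0.00386). Bhlhe41 stood at 5.62 to 13.02 CPM in CDDO-Me, 6.11 to 18.1 CPM in NASH vehicle and 0.553 to 1.69 CPM in control livers. Cry2, the other cryptochrome gene, and Rora, which encodes a ROR receptor, fell by 0.34 ± 0.11 (adjusted p = 0.0169) and 0.36 ± 0.11 (adjusted p = 0.0145) in NASH vehicle livers. With library totals alone they turned to 0.29, not called, and 0.27, called higher. On log2(TPM + 1) both were called higher, at 0.38 and 0.31, and so was Rora on reads on introns, at 0.85. Arntl2, a relative of Arntl, did not pass in any comparison, at 0.75 ± 0.39 for NASH vehicle against control (adjusted p = 0.110).

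Of 7 genes for kinases and ubiquitin ligase subunits that set the life of PER and CRY proteins, 1 passed against control livers in each NASH group and 0 passed between CDDO-Me and NASH vehicle livers by edgeR, where Fbxl21 was the 1 with an unadjusted p under 0.05. DESeq2 called it lower in CDDO-Me livers. Of all tested genes, 59.7% were called in NASH vehicle and 49.8% in CDDO-Me against control livers, and 16.6% between CDDO-Me and NASH vehicle livers. The one called was Csnk1e, a casein kinase that phosphorylates PER, with 1.80 ± 0.20 in NASH vehicle (edgeR adjusted p = 6.25e-06) and 1.60 ± 0.20 in CDDO-Me livers (adjusted p = 2.57e-05). It stood at 16.3 to 30.6 CPM in CDDO-Me, 20.1 to 30.1 CPM in NASH vehicle and 6.09 to 8.30 CPM in control livers. Csnk1a1, Csnk1d, Gsk3b, Fbxl21, Btrc and Fbxw11 lay between -0.24 and 0.07 in NASH vehicle against control livers. With library totals alone these 6 all lay above 0, between 0.39 and 0.70, also those that lay below 0 with TMM.

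Among 13 genes with a daily rhythm in mouse liver, 4 were higher, 4 lower and 5 not called in NASH vehicle against control livers, a share called near the 59.7% of all tested genes. Elovl3, a fatty acid elongase, fell by 5.60 ± 0.46 (edgeR adjusted p = 1.37e-06) to 15.4 to 22.01 CPM in NASH vehicle livers, against 646.7 to 1181 CPM in control livers. Cdkn1a, a cell cycle inhibitor, and Wee1, a cell cycle kinase with E-boxes, were higher by 2.40 ± 0.29 (adjusted p = 2.32e-05) and 1.18 ± 0.21 (adjusted p = 0.000246). Only 36.1% of Wee1 reads were unique, and 1600010M07Rik overlaps it. Gys2, the liver glycogen synthase, fell by 0.73 ± 0.15 (adjusted p = 0.00106), a change that shrank to -0.12 with library totals.

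Between CDDO-Me and NASH vehicle livers, 5 of these 13 were higher, 0 lower and 8 not called by edgeR, with a median of 0.50, where 9.39% of all tested genes were higher and 7.24% lower, with a median of -0.01. With unadjusted p under 0.05, 1 was lower (Cdkn1a, -0.64 ± 0.27), and DESeq2 also called 0 lower. The lowest p belonged to Por, the electron donor of P450 enzymes (0.67 ± 0.15, adjusted p = 0.00823), Elovl3 (1.73 ± 0.40, adjusted p = 0.0124), Nampt, which makes NAD (0.37 ± 0.09, adjusted p = 0.0168), and Insig2, a regulator of lipid synthesis (0.50 ± 0.14, adjusted p = 0.0279). Nampt was no longer called with library totals (0.22) or without NASH vehicle 4 (adjusted p = 0.060), among other alternatives. The call of Insig2 ended with the replicate block (adjusted p = 0.057), on reads on introns (-0.04), and without NASH vehicle 2, 3 or 4 or CDDO-Me 2 or 3 (adjusted p of 0.061 to 0.098). Elovl3 reached 33.8 to 131.8 CPM in CDDO-Me livers. In CDDO-Me against control livers 7 were higher, 3 lower and 3 not called (49.8% of all tested genes called), led by Elovl3 (-3.87 ± 0.43, adjusted p = 1.89e-05), Nampt (0.71 ± 0.10, adjusted p = 4.48e-05), Wee1 (1.26 ± 0.21, adjusted p = 0.000223) and Cdkn1a (1.76 ± 0.28, adjusted p = 0.000316).

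Feeding, glucocorticoids and body temperature also drive daily RNA rhythms in liver. Of 8 genes that follow them, 1 was higher, 2 lower and 5 not called in NASH vehicle against control livers, where 59.7% of all tested genes were called. G6pc, which releases glucose, fell by 1.73 ± 0.24 (edgeR adjusted p = 4.51e-05), and Pck1, an enzyme of glucose synthesis, fell by 0.82 ± 0.26 (adjusted p = 0.0162) but was at 0.08 on log2(TPM + 1). Igfbp1, an insulin-repressed gene, was higher by 1.04 ± 0.35 (adjusted p = 0.0206). The cold-induced RNA-binding genes Cirbp and Rbm3 did not pass, at 0.10 ± 0.14 (adjusted p = 0.554) and 0.60 ± 0.28 (adjusted p = 0.0850), but both were called higher with library totals, at 0.72 and 1.24.

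In CDDO-Me against NASH vehicle livers, 2 of the 8 were higher and 6 not called, where 16.6% of all tested genes were called. Fkbp5, a glucocorticoid target, was higher by 0.99 ± 0.22 (edgeR adjusted p = 0.00891), at 45.6 to 60.5 CPM in CDDO-Me and 21.9 to 35.1 CPM in NASH vehicle livers. Ppargc1a, a coactivator induced in fasting, was higher by 0.64 ± 0.16 (adjusted p = 0.0153). Igfbp1 was at -0.38 ± 0.34 (adjusted p = 0.501) and Cirbp at -0.15 ± 0.14 (adjusted p = 0.515). In CDDO-Me against control livers 2 were higher, 2 lower and 4 not called (49.8% of all tested genes called), with G6pc at -1.57 ± 0.24 (adjusted p = 0.000147), Ppargc1a at 0.89 ± 0.16 (adjusted p = 0.00047), Fkbp5 at 1.09 ± 0.22 (adjusted p = 0.00132) and Pck1 at -0.67 ± 0.26 (adjusted p = 0.0479). The call of Pck1 ended under most alternatives, including library totals (-0.24) and log2(TPM + 1) (-0.02). Tsc22d3, the other glucocorticoid target in the list, did not pass in any comparison (0.14 ± 0.25 for CDDO-Me against NASH vehicle, adjusted p = 0.748). The part of feeding state or hour of collection in the clock genes was not tested.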

How the data were processed

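Liver poly(A) RNA of 12 mice (3 groups of 4, by the labels) was sequenced as paired-end NEBNext Ultra II libraries, per the labels' protocols. Per the file headers, the authors' tables list read counts for each gene, in all and split by uniqueness, exons, introns and splice junctions. In every row the total was the sum of exon and intron reads. The authors also deposited TPM, summing to 1000000 per library, RPKM (not used in a comparison) and, per the file headers, the fraction of unique and intron reads of each gene. The build is GRCm38 per the submitters' processing notes. No source used here names the strand setting or how reads of overlapping genes were assigned.

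Total gene reads were filtered with filterByExpr (minimum count 10), scaled by TMM and fitted in edgeR 4.0.16 (R 4.3.3) with 1 mean per group over all 12 libraries, by the robust quasi-likelihood test, two-sided, adjusted by Benjamini-Hochberg over 16456 genes at 0.05. Standard errors were derived from the F statistic and the log2 fold change. Log2 CPM used a prior count of 2. The code was tested on simulated data. Replicate numbers were not used to pair samples. The labels do not say more of how animals were handled, so p-values measure the spread between these samples.

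The clock genes, gene lists, tests and alternatives were chosen with earlier results of these data known. Named are all clock genes, the genes of 2 loop lists, the 4 genes of lowest p per comparison in 2 further lists, and the 5 most alike and 5 most opposite to Arntl and to Dbp (mean CPM of at least 5, no predicted genes). Tsc22d3, and Cirbp against control, were added after their values were seen. Some list genes are not reported here and are left out of the lists' counts. Alternatives were DESeq2 1.42.0 and its size factors, library totals, no filter, 50 reads in 4 libraries, 8 libraries, a replicate block, unique, exon and intron reads, limma-trend (limma 3.58.1) on log2(TPM + 1), and leaving out libraries. Leaving out each library from the ratio of Dbp to Arntl was added after seeing the data. Gene overlaps came from the gene positions that the authors deposited with the counts.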

Additional observations from a re-analysis of the deposited data

Results flagged for a closer look

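In 2 of 57 groups of 4 livers looked at, 1 liver stood away from the other 3 by Dixon's criterion at the 95% level, where chance gives about 1 in 20. Npas2 in control livers was 17.4 CPM in control 1, against 14.9 to 15.3 CPM in the other 3. Hlf in CDDO-Me livers was 18.7 CPM in CDDO-Me 4, against 23.8 to 24.5 CPM in the other 3; CDDO-Me 4 is also a library with raised smooth muscle RNA, and the part of that RNA was not tested.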

How the results depend on the processing

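Of 591 values of the 30 gene results recomputed under other settings, 508 kept direction and call. With the direction kept, 53 lost and 13 gained the call. The other 17 turned sign, and some of these also lost or gained the call. For NASH vehicle against control, Tef turned to 0.0058 with DESeq2 size factors, 0.59 with library totals, 0.0077 in DESeq2, 0.0061 with 8 libraries, 0.79 on introns, 0.59 on log2(TPM + 1), and ran from -0.19 to 0.14 when single libraries were left out. Per2 turned to 0.28 with library totals and 0.27 on log2(TPM + 1), where Clock was 0.039 and Arntl 0.0068. For CDDO-Me against NASH vehicle, Per3 was -0.089 with unique reads and Per1 -0.012 on log2(TPM + 1). For CDDO-Me against control, Clock was 0.030 with library totals and 0.13 on log2(TPM + 1).

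Clock genes called in CDDO-Me against NASH vehicle numbered 3, but 1 with 8 libraries, 1 with the replicate block and 0 on introns, where 9 clock genes could be tested. Over all genes that comparison had 1545 called higher and 1191 lower of 16456, and 1481 and 1588 of 16225 with 8 libraries. With the replicate block it had 1250 and 927 of 16456, and on introns 348 and 244 of 12283. The replicate block lost Arntl and Clock there, lost Per3 (adjusted p = 0.078) and gained Ciart (adjusted p = 0.041) in NASH vehicle against control; same-numbered deviations correlated at -0.22 to 0.19, and in 1 of 12 cases the same number correlated best. Leaving out each library gave 5 to 8, 0 to 3 and 8 to 9 clock genes in NASH vehicle against control, CDDO-Me against NASH vehicle and CDDO-Me against control, with 0 in the second without NASH vehicle 3, NASH vehicle 4 or CDDO-Me 1. Over all genes the same ranges were 9010 to 10258, 1564 to 3425 and 7122 to 8585, and introns gave 4395, 592 and 3165 calls among fewer genes tested. Without control 3 and CDDO-Me 4, CDDO-Me against NASH vehicle called 4215 genes.

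Correlated pairs by Pearson r numbered 3, but 0 with library totals, 1 with unique reads, 0 on log2(TPM + 1) and 0 to 6 without single libraries. On log2(TPM + 1), where low levels are compressed, the mean difference of Dbp and Arntl was 0.55 in CDDO-Me, -0.26 in NASH vehicle and -2.26 in control livers. Leaving out single libraries gave -1.41 to -0.55, -2.23 to -1.40 and -5.71 to -4.41 on log2 CPM. Depth limits Ciart most, with 4 to 10 reads per control library, and Dbp in control 4, with 6; a count of 0 allows up to 3 reads, for counting error only. The cause of the other changes was not tested.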
